A study of Mus musculus with 55 samples.

Results

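Bulk RNA sequencing of whole mouse liver was used to follow 10 genes of the liver endothelium, the WNT ligands *Wnt2* and *Wnt9b*, the R-spondin *Rspo3*, the general endothelial genes *Pecam1*, *Kdr* and *Thbd* and the sinusoidal genes *Stab1*, *Stab2*, *Lyve1* and *Clec4g*. They were chosen by symbol, with earlier results of these data known, and all 10 were found among the 34490 gene symbols that the tables of both sequencing batches share. The study compared livers in which *Rnf43* and *Znrf3* had been deleted in hepatocytes of adult C57BL/6 mice carrying floxed alleles of both genes (R&Z del, labelled KO) with livers of mice carrying the same floxed alleles without Cre recombination (R&Z flox, labelled WT), undamaged, after chronic CCl4 and after partial hepatectomy (PHx). In the first batch deletion was induced with tamoxifen through AlbCreERT2, a Cre driven by the albumin promoter, and controls received vehicle. In the second batch it was induced with AAV8-TBG-Cre, a hepatotropic virus with a hepatocyte promoter, and controls received AAV8-null, apart from the 7-month (7M) livers, which were again of the tamoxifen line. Both inducers act in hepatocytes, so the cells that express the 10 genes were not themselves the target of the deletion.

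The first batch held undamaged livers 3 months (3M; 2 R&Z flox and 1 R&Z del) and 7 months after deletion (2 and 2), and livers taken 4 days (2 and 2), 50 days (1 and 2) or 170 days (2 and 2) after the last of repeated CCl4 injections, a toxin that kills hepatocytes around the central vein. The second batch held undamaged livers at 1 month (1M; 4 and 4), 3M (3 and 1) and 7M (3 and 3), and livers taken 7 days (3 and 3) or 21 days (3 and 3) after PHx, in which part of the liver is removed and the remainder grows. Damage, batch and inducer cannot be told apart between CCl4 and PHx, and no test was made across them. Of 53 libraries, 48 entered comparisons, and 5 of the first batch whose records conflict were kept apart. Total counts ran from 11721687 to 38692089 per library with a median of 22982428.

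Hepatocytes next to the central vein depend on WNT signals, and endothelial cells of the central vein and the sinusoids are a main source of them. WNT ligands bind Frizzled receptors, R-spondins bind LGR4 or LGR5, and this binding withdraws the ubiquitin ligases RNF43 and ZNRF3 that otherwise remove Frizzled from the membrane. Liver sinusoidal endothelial cells are fenestrated scavenger cells with stabilins, LYVE1 and C-type lectins on their surface, and in chronic injury they can take on features of ordinary capillaries, a change called capillarization. The 10 genes therefore stand on the sending side of the pathway whose receiving side was altered in hepatocytes.

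In the annotation used for counting (mm10), all 10 genes lie on the minus strand. The WNT side comprised *Wnt2* (chr6:17985474-18032772), *Wnt9b* (chr11:103727362-103775272) and *Rspo3* (chr10:29453106-29535867). The general endothelial genes were *Pecam1* (chr11:106654213-106715281), *Kdr* (chr5:75932827-75979072) and the 1-exon gene *Thbd* (chr2:148404471-148408188). The sinusoidal genes were *Stab1* (chr14:31139017-31168651), *Stab2* (chr10:86841194-87008038), *Lyve1* (chr7:110850607-110862953) and *Clec4g* (chr8:3707066-3720695). Counts were summed over exons and were not separated by strand, so reads of an overlapping gene on the other strand could not be told apart from those of these genes.

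Promoter windows from 250 bases before to 50 bases after the gene start were held for 6 of the 10 genes in RefSeq (GRCm38.p6, the assembly of mm10), and the bases outside annotated exons are shown for *Clec4g* (chr8:3720696-3720901) and *Stab2* (chr10:87008039-87008192), sinusoidal genes that passed the test 4 days after CCl4, and for the ligand *Wnt2* (chr6:18030446-18030695), whose RefSeq start lies inside the span counted for the gene. All are written 5′ to 3′ on the minus strand of the genome, and capitals mark matches to the ETS core AGGAAG or its reverse complement CTTCCT.
Clec4g: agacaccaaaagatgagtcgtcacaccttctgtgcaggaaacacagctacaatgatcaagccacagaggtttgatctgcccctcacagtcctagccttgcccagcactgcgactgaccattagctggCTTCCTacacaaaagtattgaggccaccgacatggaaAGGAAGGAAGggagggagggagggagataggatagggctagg
Stab2: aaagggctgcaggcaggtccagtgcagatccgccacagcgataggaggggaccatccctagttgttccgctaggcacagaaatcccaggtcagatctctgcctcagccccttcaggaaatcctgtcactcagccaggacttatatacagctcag
Wnt2: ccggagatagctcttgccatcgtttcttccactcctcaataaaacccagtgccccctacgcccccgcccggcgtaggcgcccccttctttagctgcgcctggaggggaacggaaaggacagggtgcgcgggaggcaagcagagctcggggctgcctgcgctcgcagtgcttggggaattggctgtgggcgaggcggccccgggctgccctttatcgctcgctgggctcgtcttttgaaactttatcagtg
The *Clec4g* stretch held 3 matches, 2 of them overlapping in the run AGGAAGGAAG. In *Stab2* a single match lay in the part of the window that is exonic and not shown, and *Stab1* held 1 match. ETS factors are regulators of endothelial genes, but the 6 letters occurred in 35.4% of all 32817 windows. A GATA motif (AGATAA or TTATCT, in 11.2% of windows) and a TCF/LEF motif (CTTTGA or TCAAAG, in 16% of windows) were absent from the windows of the 6 genes. A match is a description of these letters and no evidence of binding.

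The targeted genes were examined first. Counts of *Rnf43* and *Znrf3* were higher, not lower, in R&Z del livers. At 1M the 4 R&Z del livers held 51.8, 47.4, 46.9 and 52.2 CPM (counts scaled to a common library total) of *Rnf43*, and the 4 R&Z flox livers 5.004, 17.9, 3.34 and 11.8 CPM. The floxed part covers only some exons and the counts are for whole genes, so these values do not check the deletion. In the edgeR fit, log2 fold changes in R&Z del relative to R&Z flox livers were 2.22 for *Rnf43* (adjusted p = 0.047) and 1.82 for *Znrf3* (adjusted p = 0.0043). Both genes are themselves WNT targets, and the fixed list of 13 WNT target genes of hepatocytes had 5, 4 and 6 members higher and 0 lower at 1M, 3M and 7M. Of all genes tested, 0.498%, 0.226% and 0.576% passed at these times in either direction. *Glul*, glutamine synthetase of the hepatocytes at the central vein, rose by 2.32, 2.91 and 2.75 on the log2 scale. Calls throughout are adjusted p-values under 0.1 from edgeR over all genes tested. They set a difference against the spread between these libraries. A group of a single liver in a fit was assumed to vary like the other groups.

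All 10 endothelial genes were detected in every library of the first batch. Levels can be compared between genes only per exon length, and the order in the 4 undamaged R&Z flox livers of that batch was as follows. *Clec4g*, a C-type lectin of sinusoidal endothelium, stood apart at a median of 48.3 CPM per kb, and its lowest library (21.4 CPM per kb) lay above the highest of the next gene. *Stab2* and *Stab1*, scavenger receptors for hyaluronan and other ligands, had 3.47 and 2.79 CPM per kb, and *Kdr*, the main VEGF receptor, had 2.93 CPM per kb. *Pecam1*, an adhesion molecule of endothelial junctions, had 2.33 CPM per kb and *Rspo3* had 1.38 CPM per kb. From *Stab2* to *Rspo3*, each gene's range overlapped that of the next, so this order does not exceed the spread between livers. *Wnt2* (0.768 CPM per kb), *Lyve1* (0.698 CPM per kb), a hyaluronan receptor, and *Thbd* (0.413 CPM per kb), which encodes the anticoagulant receptor thrombomodulin, lay below all libraries of *Rspo3*, apart from the highest library of *Lyve1* (1.37 CPM per kb), and overlapped each other. *Wnt9b* was lowest at 0.138 CPM per kb, and its highest library (0.194 CPM per kb) lay just below the lowest of *Thbd* (0.197 CPM per kb).

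The second batch had much sparser values for several of the genes, and without exon lengths its levels are given gene by gene. Medians over its 30 libraries were 66.9 CPM for *Clec4g*, 51.0 for *Stab2*, 39.0 for *Stab1* and 28.7 for *Kdr*. *Wnt9b* had no count in 21 of the 30 libraries, *Thbd* in 12, *Wnt2* in 7, *Rspo3* in 3, *Lyve1* in 2 and *Pecam1* in 1. The other 4 genes were counted in all 30. *Wnt2* ranged from 0 to 33.3 CPM and *Rspo3* from 0 to 20.3 CPM. In the first batch *Wnt2* ranged from 0.348 to 8.12 CPM and *Rspo3* from 0.783 to 5.24 CPM. The values of these ligands therefore spread further in the second batch. Genes with a count also differed, at 12249 to 15717 per library in the second batch and 18106 to 22604 in the first. The part of this difference in the spread was not tested. A liver with no count allows up to 3 counts at its depth, which covers counting error only.

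**Figure D1:**
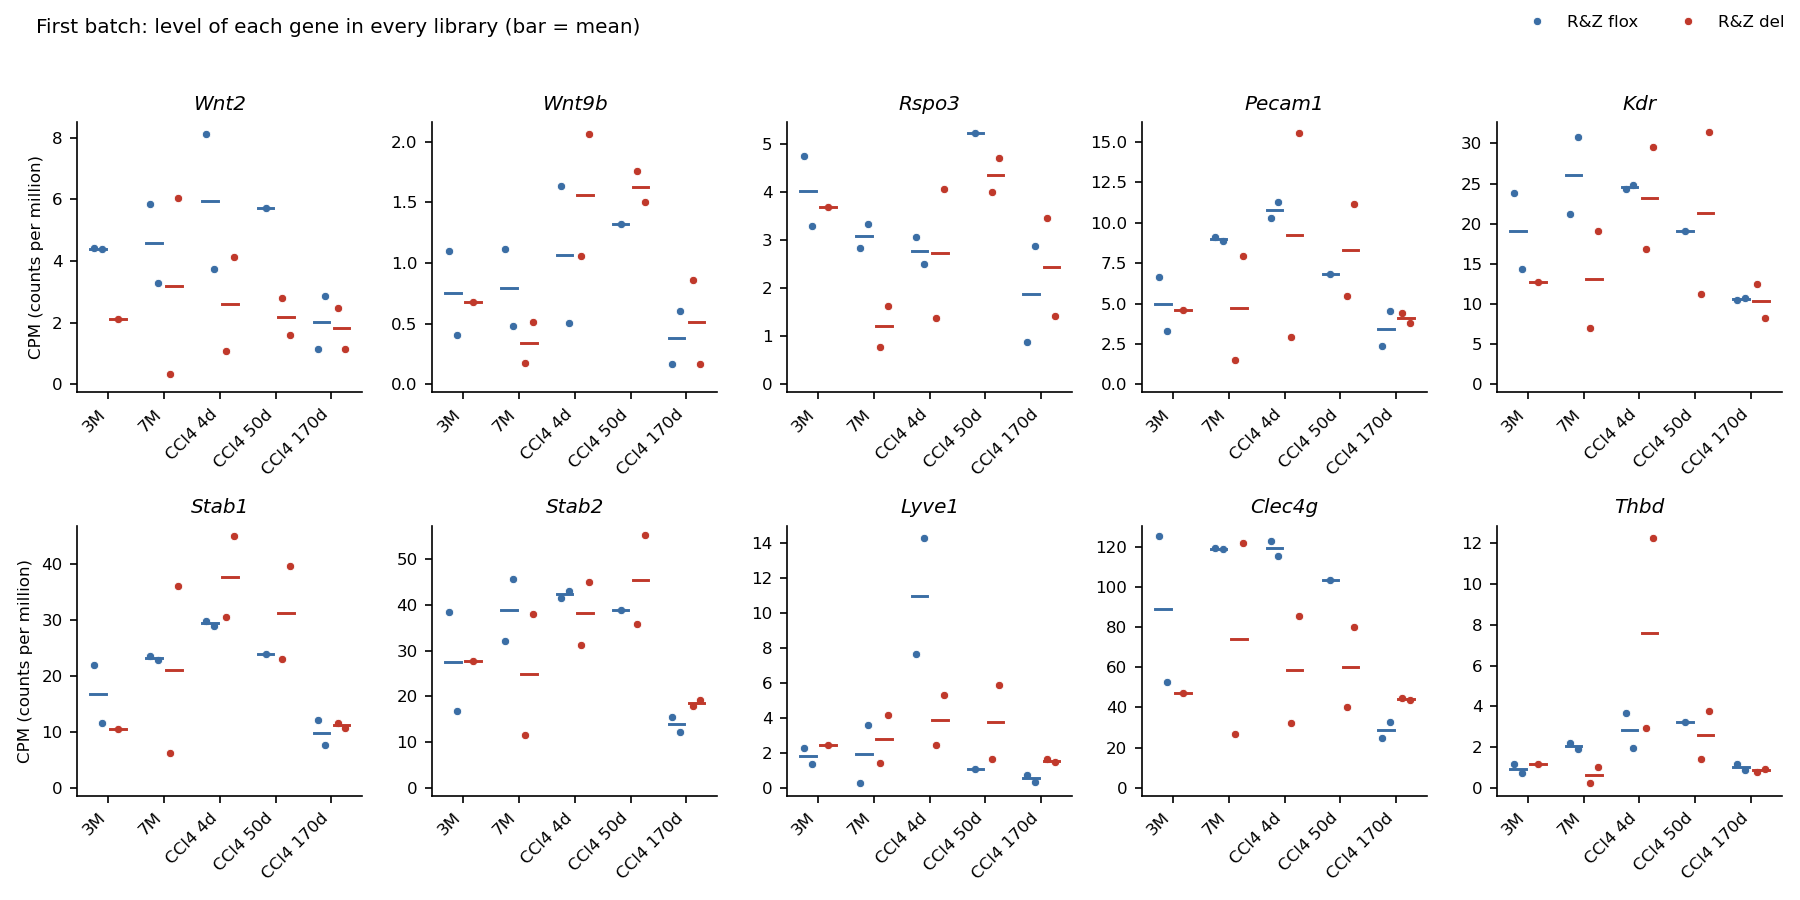
Level of each of the 10 genes in CPM (vertical axis) in every library of the first batch, with groups on the horizontal axis, R&Z flox in blue and R&Z del in red; points are libraries and bars are group means. *Clec4g* and *Lyve1* were lower in both R&Z del than in both R&Z flox livers 4 days after CCl4, and most genes lay low in all 4 livers at 170 days.

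**Figure D2:**
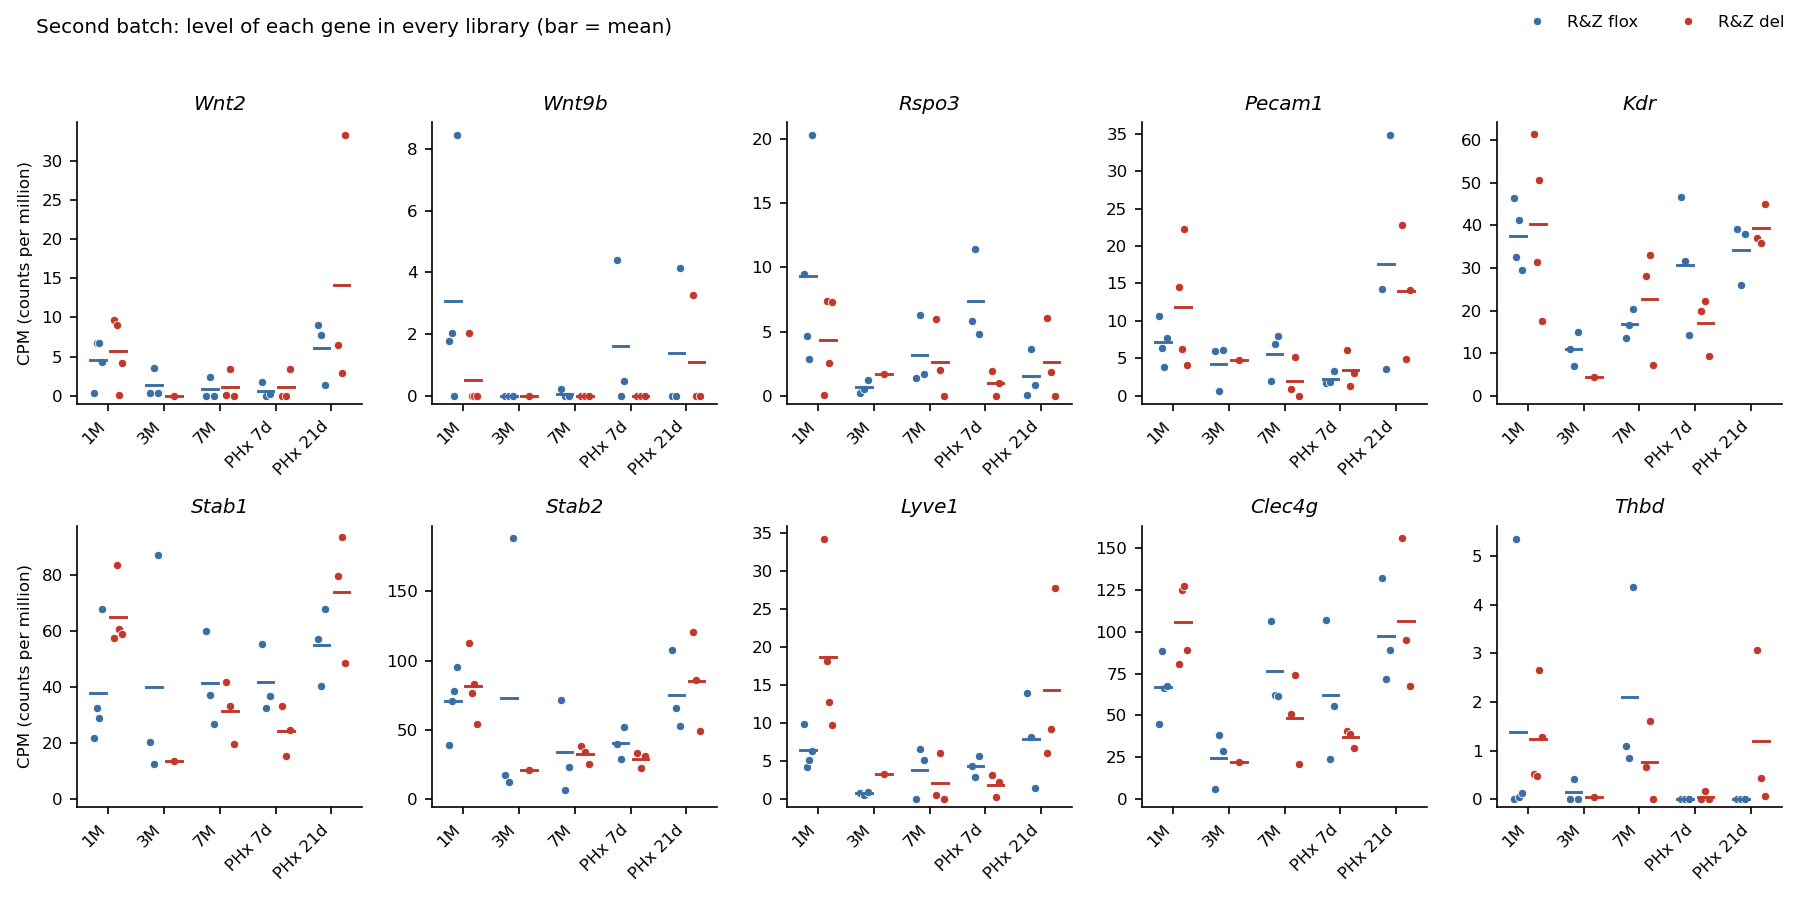
Level of each of the 10 genes in CPM (vertical axis) in every library of the second batch, drawn as for the first batch. *Wnt9b* and *Thbd* are at 0 in many libraries, and the R&Z del livers 7 days after PHx lie below the R&Z del livers at 1M for *Stab1*, *Stab2*, *Lyve1* and *Clec4g*.

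Whether the deletion in hepatocytes altered the endothelial genes was first asked in undamaged livers. None of the 10 genes passed the test at 1M, 3M or 7M, when 0.498%, 0.226% and 0.576% of the 12848 genes tested did. None reached an unadjusted p under 0.05 at any of the 3 times, and none passed by the likelihood ratio test of edgeR or by DESeq2, which gave no adjusted p for 8 of the 10 genes at 7M. In bulk liver, fewer endothelial cells and less RNA per endothelial cell cannot be told apart in these values. Median log2 fold changes over the 10 genes were 0.23, -0.80 and -0.42 at the 3 times in order, beside 0.013, -0.091 and -0.016 over all genes.

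At 1M the 4 R&Z del livers held 80.4, 125.0, 127.4 and 89.3 CPM of *Clec4g*, and the 4 R&Z flox livers 66.3, 67.6, 44.7 and 88.4 CPM. *Stab1* had 57.5, 83.8, 60.7 and 59.0 CPM in R&Z del against 28.9, 67.8, 21.8 and 32.7 CPM in R&Z flox. *Lyve1* had 34.3, 18.1, 12.7 and 9.72 CPM against 5.23, 6.3996, 9.86 and 4.29 CPM. For these 3 sinusoidal genes the R&Z del livers lay mostly on the upper side, and in each case 1 R&Z flox liver reached into their range. None of the 10 genes separated the genotypes completely at 1M, as 3.84% of genes did upward and 1.33% downward. In the fit, which also has terms for sex and batch, the log2 fold changes were 0.48 (SE 0.46) for *Clec4g*, 0.65 (SE 0.49) for *Stab1* and 1.29 (SE 1.21) for *Lyve1*, each not far from the size of its standard error.

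The ligands showed no call at 1M and wide spreads. *Wnt2* was at 9.68, 8.97, 0.0904 and 4.19 CPM in R&Z del and at 6.67, 4.35, 0.338 and 6.67 CPM in R&Z flox livers. *Wnt9b* was counted in 1 of 4 R&Z del livers, at 2.04 CPM, and in 3 of 4 R&Z flox livers, at 8.45, 1.78 and 2.05 CPM. *Rspo3* had 0.0371, 7.36, 2.58 and 7.29 CPM against 2.89, 20.3, 9.52 and 4.66 CPM. The genotypes overlapped for *Wnt2*, and the log2 fold changes were -0.23 (SE 1.70) for *Wnt2*, -3.34 (SE 2.38) for *Wnt9b* and -1.24 (SE 1.25) for *Rspo3*, with a lowest adjusted p of 0.88 among the 10 genes.

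At 3M each batch had a single R&Z del liver. In the first batch it held 47.2 CPM of *Clec4g* against 125.5 and 52.7 CPM in R&Z flox, and in the second 22.5 CPM against 6.11, 38.6 and 28.7 CPM. *Kdr* was at 12.8 CPM against 23.8 and 14.4 CPM, and at 4.49 CPM against 10.9, 7.00 and 15.02 CPM. *Kdr* was thus lowest in the R&Z del liver of each batch, as was *Wnt2*. The share of all genes with this pattern is not given here, so it stands without a background. In the first batch the R&Z del liver was female and both R&Z flox livers were male. Sex and genotype therefore cannot be told apart in the CPM values of that batch, whereas the fit has a term for sex. The log2 fold change over both batches was -1.13 (SE 0.61) for *Kdr*, with an edgeR adjusted p of 0.79, and -3.23 (SE 2.65) for *Wnt2*. *Stab1* and *Stab2* had values of -1.05 (SE 0.65) and -1.08 (SE 0.84). The third R&Z flox liver of the second batch held 87.2 CPM of *Stab1* and 188.2 CPM of *Stab2*, against at most 38.5 CPM of either gene in the other 4 R&Z flox livers at 3M.

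At 7M the 2 R&Z del livers of the first batch lay far apart. The first held 26.6 CPM of *Clec4g*, 7.05 CPM of *Kdr* and 0.348 CPM of *Wnt2*, and the second 121.6, 19.1 and 6.05 CPM. The R&Z flox livers held 119.3 and 118.7 CPM of *Clec4g*, 21.3 and 30.8 CPM of *Kdr* and 5.85 and 3.29 CPM of *Wnt2*. On CPM, *Rspo3*, *Pecam1*, *Kdr* and *Thbd* were lower in both R&Z del livers than in both R&Z flox livers, as were 22.1% of the 13447 genes compared, and none of the 10 was higher in both, as 16.3% were. Both R&Z del livers were male and 1 of these R&Z flox livers was female. In the second batch *Clec4g* was at 50.9, 73.9 and 20.9 CPM in R&Z del against 106.2, 62.2 and 61.9 CPM in R&Z flox, and the groups overlapped, as they did for each of the 10 genes (4.1% of genes separated upward and 5.63% downward). The last of these R&Z del livers had no count of 6 genes, *Wnt2*, *Wnt9b*, *Rspo3*, *Pecam1*, *Lyve1* and *Thbd*. Over both batches the log2 fold change of *Clec4g* was -0.65 (SE 0.42) and that of *Pecam1* -1.27 (SE 0.89), and the lowest adjusted p was 0.71.

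The other endothelial genes of the fixed lists gave the same picture. None of the 15 sinusoidal, 8 central vein and 8 capillarization genes tested passed at 1M, 3M or 7M. The median log2 fold change of the sinusoidal list, which holds no gene of the 10, was 0.58 at 1M, with 12 of 15 positive, -1.105 at 3M, with 13 of 15 negative, and -0.80 at 7M, with 15 of 15 negative. Time and inducer cannot be told apart between 1M, where all livers had the virus, and 7M, where all had the tamoxifen line. At 3M the inducer differed by batch. At 7M Kupffer cell genes summed to 197 to 539 CPM in R&Z del and 601 to 927 CPM in R&Z flox livers of the first batch, and to 192 to 321 CPM and 367 to 519 CPM in the second. Stellate cell and fibroblast genes summed to 108 to 211.2 CPM and 211.6 to 364 CPM in the first batch, and to 53.4 to 386 CPM and 302 to 514 CPM in the second. Their part in the endothelial values was not tested.

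**Figure D3:**
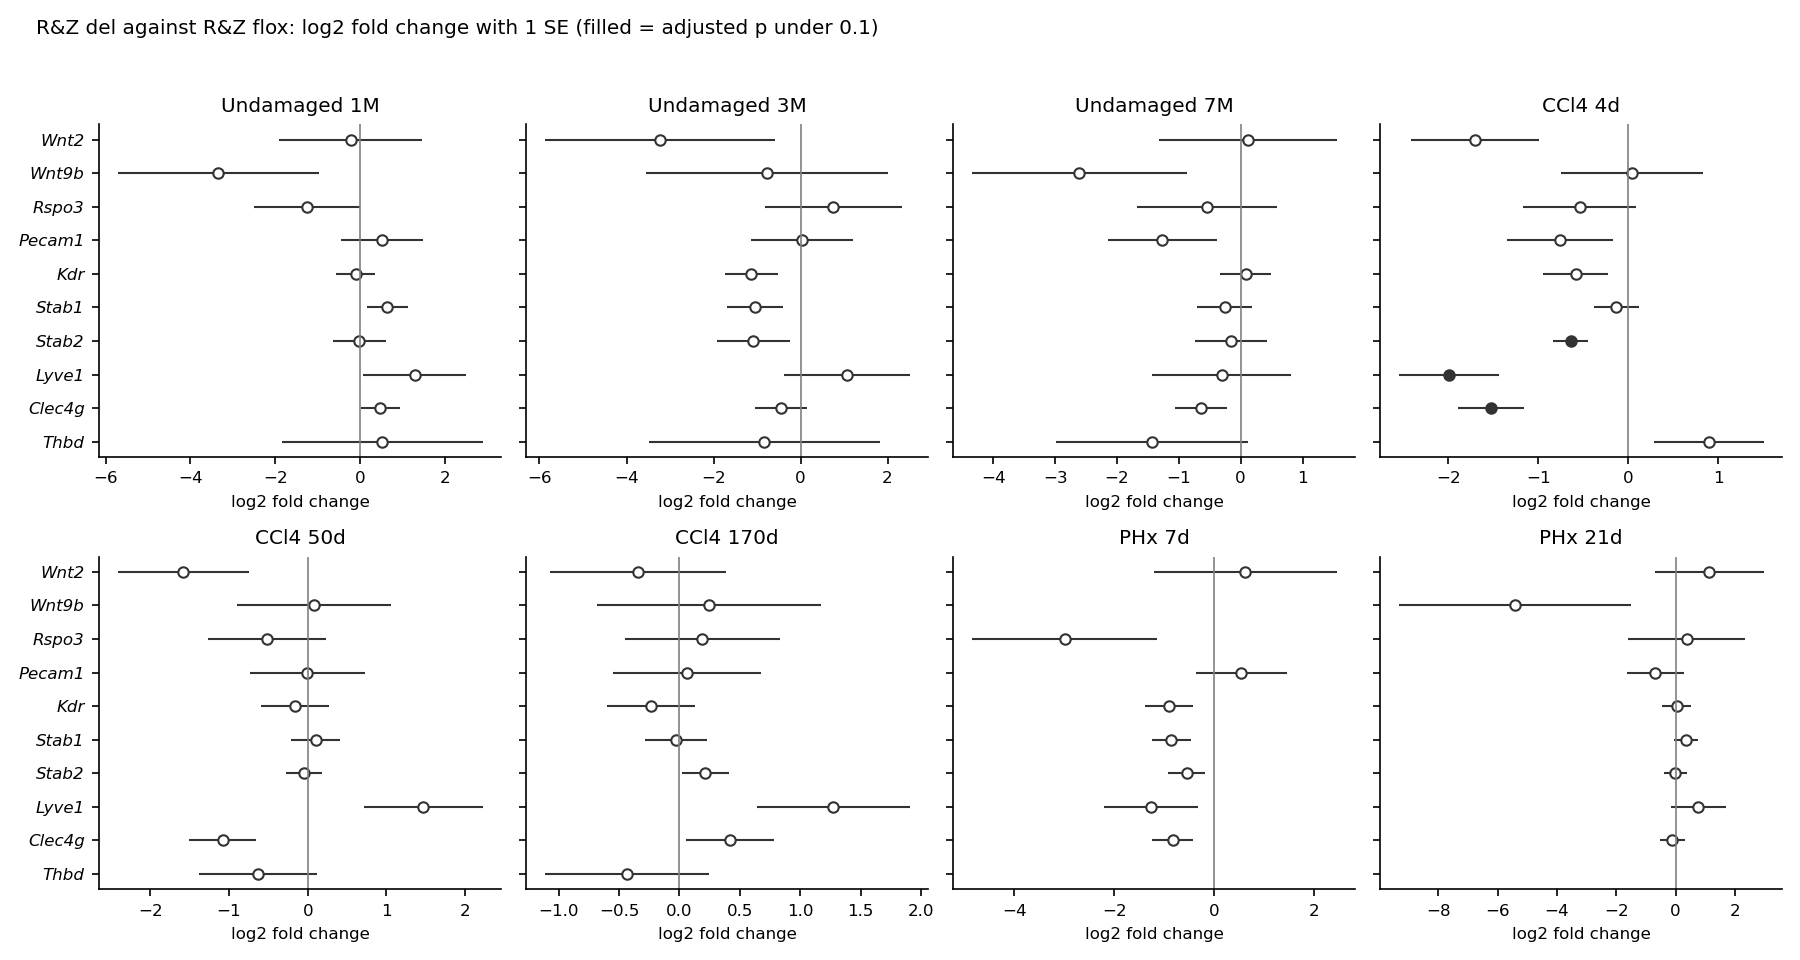
Log2 fold change between R&Z del and R&Z flox livers (horizontal axes, positive where higher in R&Z del) with 1 standard error for each of the 10 genes (vertical axis), undamaged and after damage; filled points have an adjusted p under 0.1 in edgeR. Only *Stab2*, *Lyve1* and *Clec4g* 4 days after CCl4 are filled.

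At 4 days after CCl4 the calls among the 10 genes were of 3 sinusoidal genes, *Clec4g*, *Lyve1* and *Stab2*, at a time when 27.4% of all genes tested passed. *Clec4g* was 32.1 and 85.7 CPM in the 2 R&Z del livers and 122.8 and 115.4 CPM in the 2 R&Z flox livers. *Lyve1* was 2.44 and 5.32 CPM in R&Z del and 7.66 and 14.3 CPM in R&Z flox. *Stab2* was 31.3 and 45.1 CPM in R&Z del and 41.7 and 43.1 CPM in R&Z flox. *Clec4g* and *Lyve1* were lower in both R&Z del livers, whereas the R&Z del values of *Stab2* lay on both sides of the R&Z flox values. On this unscaled measure 10.6% of genes were lower in both R&Z del livers and 66.8% were higher, among them *Stab1*.

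With TMM scaling, which sets the typical gene to no change, 3 of the 10 genes passed and all 3 fell. The log2 fold change was -1.53 for *Clec4g* (SE 0.37, adjusted p = 0.023), -1.997 for *Lyve1* (SE 0.55, adjusted p = 0.038) and -0.64 for *Stab2* (SE 0.19, adjusted p = 0.047). Of the 11935 genes tested, 12.9% fell and 14.5% rose, so 3 of 10 was close to the share of all genes that passed in either direction. The median over the 10 genes was -0.61, beside 0.057 over all genes. All 3 that fell are sinusoidal genes, whereas the sinusoidal gene *Stab1* did not pass. *Stab1* was 30.5 and 44.9 CPM in R&Z del and 29.9 and 28.95 CPM in R&Z flox. *Lyve1* is also expressed by some macrophages, whose part in its value was not tested.

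The calls depended in part on the scaling. The TMM factors were 1.26 and 1.405 in the R&Z del livers and 0.94 and 0.96 in the R&Z flox livers. With library totals alone the median of all genes moved to 0.547 and 90.1% of the calls were higher in R&Z del, against 52.9% with TMM. *Clec4g* (-1.01, adjusted p = 0.096) and *Lyve1* (-1.49, adjusted p = 0.097) still passed on that scale, and *Stab2* (-0.14, adjusted p = 0.68) did not. Leaving out the first R&Z del liver, which had the lower values, gave adjusted p-values of 0.168 for *Lyve1* and 0.217 for *Stab2*. Leaving out the first R&Z flox liver gave 0.114 for *Clec4g* and 0.174 for *Stab2*, and leaving out the second gave 0.192 for *Lyve1* and 0.152 for *Stab2*. With the 3 CCl4 libraries of conflicting records placed by their alternative record, none of the 3 genes passed, and their log2 fold changes were nearly the same: -1.54 for *Clec4g* (adjusted p = 0.209), -2.005 for *Lyve1* (adjusted p = 0.132) and -0.65 for *Stab2* (adjusted p = 0.406). Those libraries belong to groups at 50 or 170 days and enter this comparison only through the scaling, filter and spread shared by the fit.

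The remaining 7 genes did not pass. *Wnt2* was 1.09 and 4.14 CPM in R&Z del against 8.12 and 3.76 CPM in R&Z flox, overlapping between groups (-1.70, SE 0.71, adjusted p = 0.124). *Rspo3* was 1.38 and 4.07 CPM against 3.06 and 2.51 CPM (-0.54, SE 0.63), and *Wnt9b* was 1.05 and 2.07 CPM against 1.63 and 0.508 CPM (0.04, SE 0.79). None of the 3 WNT pathway ligands therefore separated the genotypes. *Thbd* had the only sizeable positive value, with 2.94 and 12.3 CPM against 3.70 and 1.96 CPM (0.90, SE 0.61, adjusted p = 0.32). *Stab1* (-0.14, SE 0.25), *Kdr* (-0.58, SE 0.36) and *Pecam1* (-0.75, SE 0.59) had adjusted p-values from 0.28 to 0.73.

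At this time *Marco* and *Cd5l* of the Kupffer cell list fell, and the part of these cells in the sinusoidal values was not tested. In the sinusoidal list, which holds other genes than the 10, all genes that passed fell. Of 14 tested, 4 fell and 0 rose, where 12.9% of all genes fell, and the list's median was -0.92. They were *Cd300lg* (-1.82, adjusted p = 0.020), a mucin-like receptor of endothelium, *Bmp2* (-1.36, adjusted p = 0.046), an angiocrine inducer of hepcidin, *Clec1b* (-1.32, adjusted p = 0.017), a lectin-like receptor, and *Mrc1* (-0.98, adjusted p = 0.096), the mannose receptor. *Cd300lg* was 3.85 and 10.1 CPM in R&Z del and 17.5 and 16.96 CPM in R&Z flox, without overlap, as 10.6% of all genes were on the lower side. Without TMM 2 of the sinusoidal genes passed, and with the 3 libraries of conflicting records 0 did. Leaving out the first R&Z del liver or the first R&Z flox liver left 2, and leaving out the second R&Z flox liver left 1.

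The capillarization genes moved the other way. Of 8 tested, 5 rose and 0 fell, where 14.5% of all genes rose, with a median of 1.70. *Cav1*, the caveola protein, was 9.05 and 21.0 CPM in R&Z del against 1.03 and 1.46 CPM in R&Z flox (3.09, adjusted p = 0.010). *Vwf*, von Willebrand factor, was 5.85 and 11.2 CPM against 1.07 and 1.39 CPM (2.29, adjusted p = 0.018). *Cd34* (1.85, adjusted p = 0.044) and the laminin chain *Lama4* (1.995, adjusted p = 0.032) also rose, and each of these 4 genes was higher in both R&Z del livers, as 66.8% of all genes were. These genes are not particular to endothelium, since fibroblasts and other cells express *Cav1* and *Lama4*. With the libraries of conflicting records 1 gene of the list passed. Leaving out the second R&Z del liver or the second R&Z flox liver left 2, and leaving out the first R&Z flox liver left 1.

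Among general endothelial genes of the fixed list, 1 of 21 rose and 1 fell, with a median of -0.13. *Ecscr*, an endothelial sialomucin, rose (1.58, adjusted p = 0.015), and *Ptprb*, the endothelial phosphatase VE-PTP, fell (-0.88, adjusted p = 0.066). Of the 8 central vein genes 2 rose, *Dkk3* (2.34, adjusted p = 0.019) and *Vwf*, which is in both lists, and none of 5 periportal genes passed. Of 4 WNT ligands tested none passed. Of 5 genes of the R-spondin list, the receptor *Lgr4* fell (-1.20, adjusted p = 0.018), and *Znrf3* and *Rnf43* rose. Among other angiocrine genes *Ccn2* (3.32, adjusted p = 0.0074), *Jag1* (2.35, adjusted p = 0.0093) and *Gas6* (1.84, adjusted p = 0.069) rose. *Vegfa*, the ligand of KDR, rose (1.19, adjusted p = 0.043) and was the 1 gene of 10 in the VEGF and angiopoietin list to pass.

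Markers of other cell types moved at the same time. All 6 cholangiocyte genes tested rose, with a median of 4.41, and their summed level was 3519 to 6271 CPM in R&Z del against 96.0 to 166.9 CPM in R&Z flox. Of 13 stellate cell and fibroblast genes 5 rose (median 1.19), and of 10 hepatocyte genes 2 fell (median -0.69). Of 12 Kupffer cell genes 2 fell, *Marco* (-2.75) and *Cd5l* (-1.35), with a list median of -0.70 and summed levels of 1116 to 2374 CPM against 1134 to 2603 CPM. None of 4 lymphatic endothelial genes passed. The part of these cell types in the endothelial values was not tested.

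**Figure D4:**
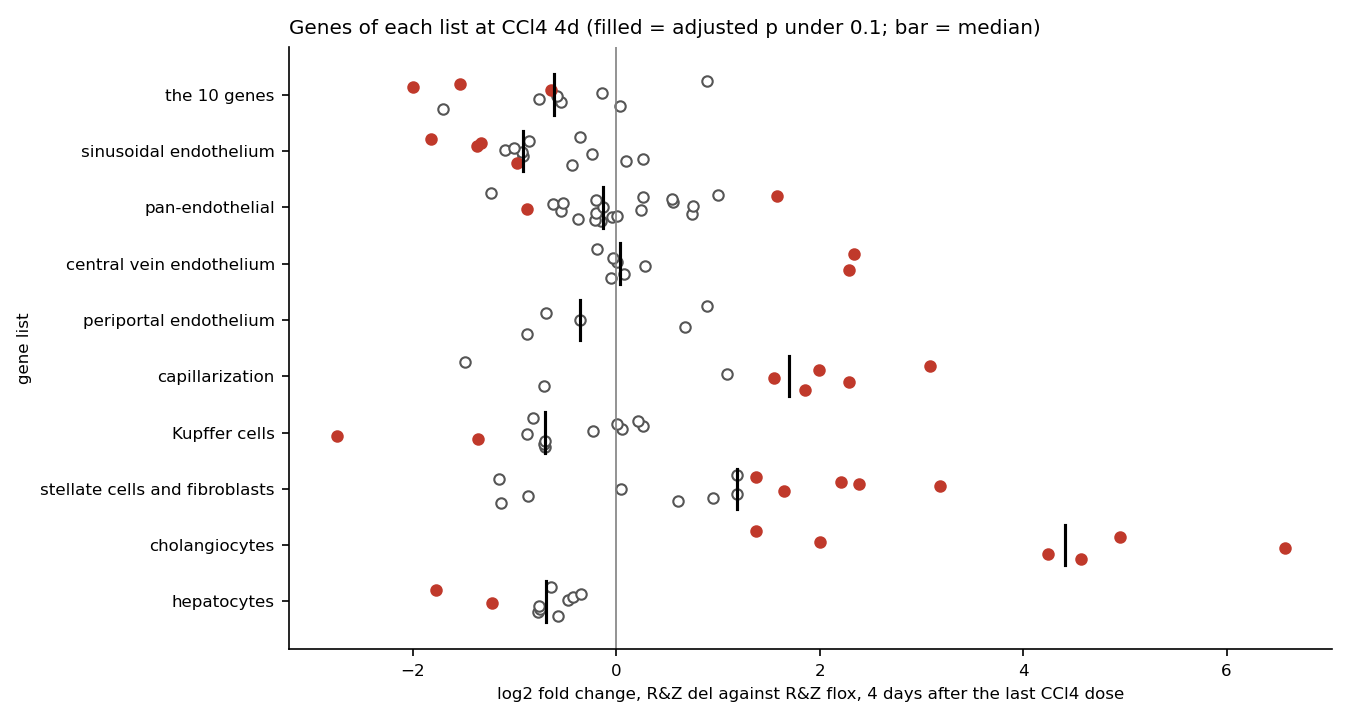
Log2 fold change between R&Z del and R&Z flox livers 4 days after the last CCl4 dose (horizontal axis) for the genes of each fixed list (vertical axis); each point is a gene, filled points have an adjusted p under 0.1 in edgeR and bars are list medians. Sinusoidal genes lie mostly on the left (median -0.92) and capillarization genes mostly on the right (median 1.70).

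At 50 days none of the 10 genes passed, when 7.36% of genes did, and by the likelihood ratio test and DESeq2 the count was also 0. A single R&Z flox liver stood for that group. *Clec4g* was 40.4 and 79.8 CPM in R&Z del against 103.6 CPM in R&Z flox (-1.08, SE 0.43, adjusted p = 0.179), and it was the 1 gene with an unadjusted edgeR p under 0.05, where 12.5% of genes had one and were lower. *Lyve1* had the opposite sign to day 4, with 1.63 and 5.88 CPM against 1.08 CPM (1.47, SE 0.76, adjusted p = 0.28). *Wnt2* was 2.79 and 1.58 CPM against 5.72 CPM (-1.58, SE 0.84, adjusted p = 0.29). The other 7 genes had values between -0.63 and 0.10, and the median over the 10 genes was -0.10. In the fixed lists *Clec1b* fell (-1.21, adjusted p = 0.097), 1 of 14 sinusoidal genes, and *Cd34* (2.89, adjusted p = 0.087), *Wnt4* (5.28, adjusted p = 0.055), a WNT ligand, and *Vegfb* (1.75, adjusted p = 0.050), a VEGF ligand, rose, each as 1 gene of its list of 8, 4 and 10 genes. Genes of other lists moved at the same time. *Alb*, albumin, had a log2 fold change of -1.62, and the Kupffer cell gene *Vsig4* had -1.98. Higher in R&Z del were the fibroblast genes *Col1a1* (4.24) and *Lum* (2.24) and the cholangiocyte gene *Spp1* (2.81). The proliferation genes *Cdk1* (1.65) and *Birc5* (1.55) were also higher. The part of these cell types in the endothelial values was not tested.

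At 170 days none passed by edgeR or DESeq2, none had an unadjusted p under 0.05, and 0.637% of genes were called. *Clec4g* was 44.9 and 43.5 CPM in R&Z del and 25.0 and 32.6 CPM in R&Z flox. *Stab2* was 17.9 and 19.2 CPM against 15.5 and 12.3 CPM, and *Lyve1* 1.65 and 1.46 CPM against 0.747 and 0.344 CPM. These 3 genes, which fell in R&Z del at day 4, were higher on CPM in both R&Z del livers at day 170, as were 38.6% of all genes (7.85% were lower in both, none of the 10 among them). On the TMM scale the values were 0.42 (SE 0.36) for *Clec4g*, 0.21 (SE 0.19) for *Stab2* and 1.27 (SE 0.63, adjusted p = 0.61) for *Lyve1*, and the median over the 10 genes was 0.13. Of the 4 WNT ligands tested *Wnt5b* fell (-2.16, adjusted p = 0.065), and of the 5 genes of the R-spondin list *Lgr5* (2.13, adjusted p = 0.031) and *Znrf3* (1.22, adjusted p = 0.069) rose.

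Livers after CCl4 were read within each genotype against undamaged livers of the first batch. The study places 4 days after CCl4 earlier after deletion than 3M, the youngest undamaged livers of that batch. CCl4 and time after deletion therefore cannot be told apart in the values at 4 days. In R&Z flox livers at day 4, none of the 10 genes passed, against 2.76% of genes, although 9 of 10 had a positive value, with a median of 0.48. *Lyve1* was 7.66 and 14.3 CPM after CCl4 and 2.29 and 1.35 CPM at 3M, which gave 2.48 on the log2 scale (SE 0.84, adjusted p = 0.18). *Thbd* was 3.70 and 1.96 CPM against 1.15 and 0.734 CPM (1.49, SE 0.68, adjusted p = 0.33). These 2 genes had an unadjusted edgeR p under 0.05, as did 7.83% of genes on the higher side. *Lyve1* passed by the likelihood ratio test (adjusted p = 0.067), which called 6.63% of genes, and by DESeq2 (adjusted p = 0.036), which called 7.12%. On CPM 6 genes, *Pecam1*, *Kdr*, *Stab1*, *Stab2*, *Lyve1* and *Thbd*, were higher in both CCl4 livers, beside 32.8% of all genes, and *Rspo3* was lower, beside 17.2%. Kupffer cell genes summed to 1134 to 2603 CPM in these livers and to 457 to 610 CPM at 3M, and *Lyve1* is also expressed by some macrophages. Their part in the *Lyve1* value was not tested.

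In R&Z del livers at day 4 none of the 10 genes passed either, where 23.7% of genes did. *Thbd* was 2.94 and 12.3 CPM against 1.17 CPM in the single liver at 3M (2.14, SE 0.88, adjusted p = 0.115). It was the 1 gene with an unadjusted edgeR p under 0.05, beside 17% of genes on the higher side. The likelihood ratio test and DESeq2 also called it, where they called 27.2% and 30.3% of all genes. *Stab1* was 30.5 and 44.9 CPM against 10.5 CPM (1.31, SE 0.70, adjusted p = 0.21). *Lyve1*, at 2.44 and 5.32 CPM against 2.43 CPM, had a value of 0.13 (SE 0.98). The single R&Z del liver at 3M in this batch was female, all livers after CCl4 were male and this fit has no term for sex, so sex and CCl4 cannot be told apart in the R&Z del values at 4 and 50 days or in a difference of genotype effects against 3M. The difference between the genotype effects at day 4 and at 3M was -2.35 for *Lyve1* (SE 1.25, adjusted p = 0.34), and none of the 10 genes passed that test, against 2.31% of genes.

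At 50 days none of the 10 genes passed in either genotype, against 0 of 13447 genes in R&Z flox (303 at an unadjusted p under 0.05, 1.27% of genes on the higher side, *Thbd* among them) and 8.54% in R&Z del. *Thbd* was 3.24 CPM in the single R&Z flox liver against 1.15 and 0.734 CPM (1.75, SE 0.79), and *Stab1* was 22.9 and 39.6 CPM in R&Z del against 10.5 CPM (1.34, SE 0.70, adjusted p = 0.26). The medians over the 10 genes were 0.39 and 0.48.

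At 170 days all 10 genes had negative values in R&Z flox livers, with a median log2 fold change of -1.04 against -0.0068 over all genes. Of the R&Z flox livers at 7M 1 was female, all livers after CCl4 were male and this fit has no term for sex. Sex and CCl4 are therefore not fully separated in these values. *Clec4g* was 25.0 and 32.6 CPM after CCl4 and 119.3 and 118.7 CPM at 7M (-1.83, SE 0.58, adjusted p = 0.53). *Stab2* was 15.5 and 12.3 CPM against 32.05 and 45.7 CPM (-1.24, SE 0.42, adjusted p = 0.53), and *Kdr* was 10.5 and 10.7 CPM against 21.3 and 30.8 CPM (-1.05, SE 0.43, adjusted p = 0.55). *Stab1* was 12.1 and 7.60 CPM against 23.6 and 22.8 CPM. In each of these 4 genes both damaged livers lay well below both undamaged livers, and 7 of the 10 genes separated in this way, beside 32.3% of all genes, while none lay higher, beside 5.6%. No gene of 13447 passed edgeR's adjusted threshold in this comparison. At an unadjusted p under 0.05, 4.69% of genes were lower, and *Clec4g*, *Stab2* and *Kdr* were among them. DESeq2 called *Clec4g* (-1.82, adjusted p = 0.073), where it called 1.03% of genes.

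The fixed lists had the same sign in that comparison. All 14 sinusoidal genes had negative values (median -1.10), as did 19 of 21 general endothelial genes (median -1.04) and 11 of 12 Kupffer cell genes (median -0.63). Hepatocyte genes were positive in 8 of 10 (median 0.38) and mesothelial genes in 5 of 5 (median 2.73), with mesothelial sums of 3.52 to 106.6 CPM against 2.22 to 5.34 CPM. The part of the cell types in these values was not tested. In R&Z del livers the same comparison gave 7 of 10 negative values and a median of -0.41, none of the 10 separated from the undamaged livers (22.7% of genes did upward and 13.1% downward), and 0 of 13447 genes passed (795 at an unadjusted p under 0.05, none of the 10 among them). The difference of the genotype effects at 170 days and at 7M was positive for 10 of 10 genes (median 0.87), with 0 of 13447 genes passing and an unadjusted p above 0.05 for each of the 10. All of these comparisons use the same 2 undamaged livers of a genotype as reference, and 1 of the 2 R&Z del livers at 7M had low values of all 10 genes. The R&Z flox reference held 1 female and 1 male and the R&Z del reference 2 males, without a term for sex.

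**Figure D5:**
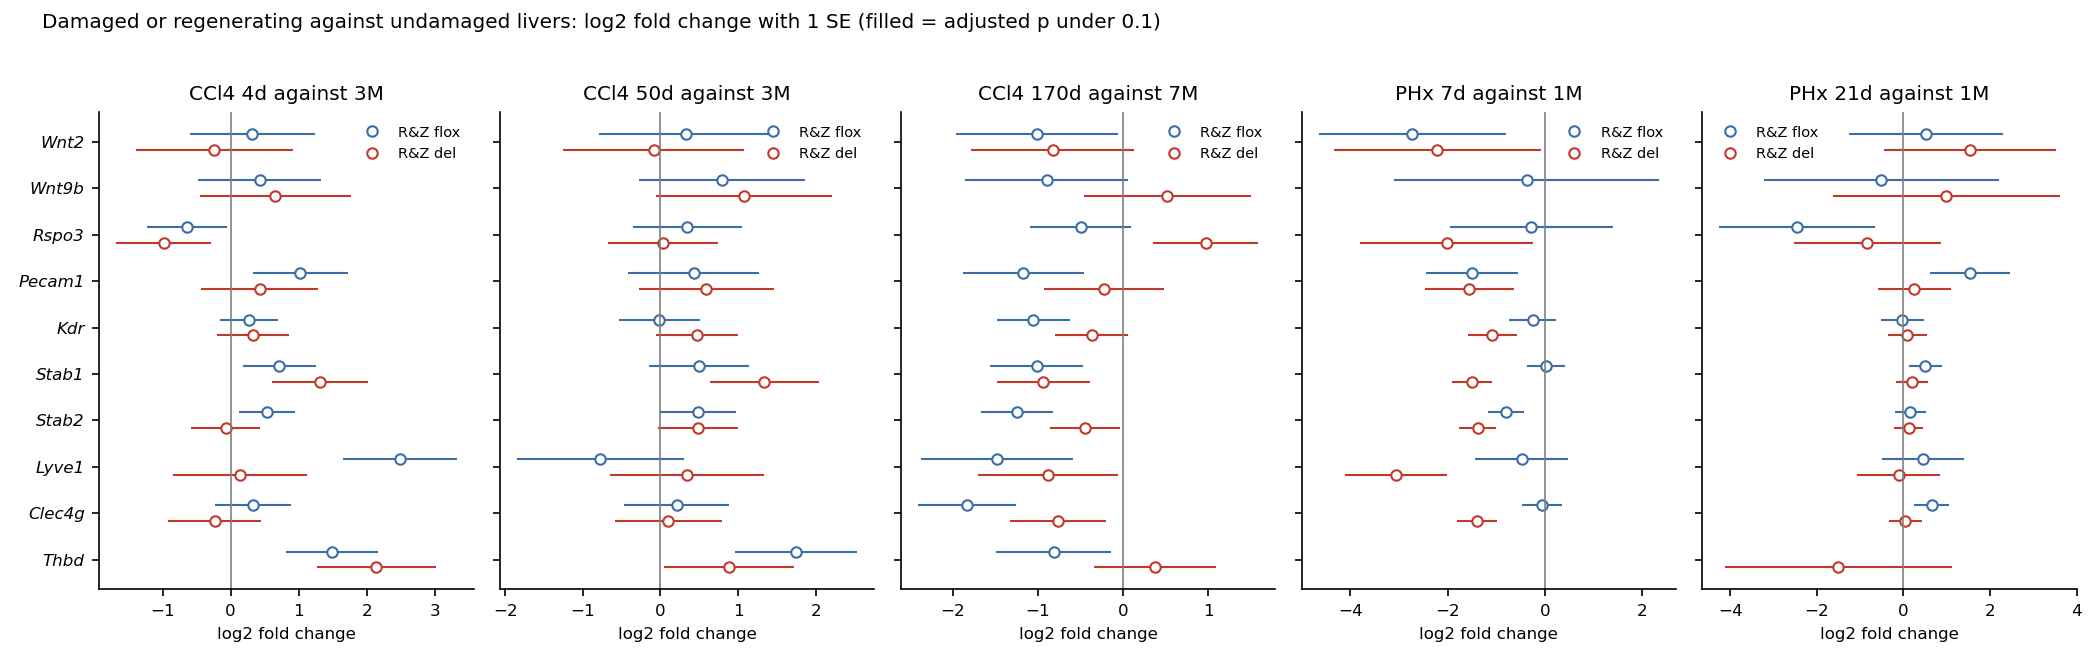
Log2 fold change of damaged or regenerating livers over undamaged livers of the same genotype (horizontal axes) with 1 standard error, R&Z flox in blue and R&Z del in red; a filled point would have an adjusted p under 0.1 in edgeR and none does. The R&Z flox values at CCl4 170 days and the R&Z del values 7 days after PHx lie to the left of 0, and values are not drawn where a group was at or under 3 counts in every library.

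After PHx the genotypes were compared at 7 and 21 days. None of the 10 genes passed at 7 days, when 0.285% of the 14043 genes tested did, and none at 21 days, when 0.392% did. At 7 days *Clec4g* was 40.9, 39.1 and 30.7 CPM in R&Z del and 106.9, 23.9 and 55.8 CPM in R&Z flox (-0.83, SE 0.41, adjusted p = 0.81). *Stab1* was 33.3, 15.4 and 24.8 CPM against 55.5, 32.7 and 37.1 CPM (-0.85, SE 0.40, adjusted p = 0.81). The lowest R&Z flox liver for *Stab1*, at 32.7 CPM, lay just under the highest R&Z del liver. *Rspo3* was 1.93, 0 and 0.977 CPM in R&Z del and 5.80, 11.5 and 4.79 CPM in R&Z flox, and it was the 1 gene of the 10 that was lower in every R&Z del liver, beside 4.26% of all genes. Its log2 fold change was -2.99 with a standard error of 1.86, and 1 of the 3 R&Z del livers had no count. *Kdr* (-0.91, SE 0.49), *Lyve1* (-1.26, SE 0.94) and *Stab2* (-0.55, SE 0.37) were also negative, and over the 8 genes with a fold the median was -0.84. At an unadjusted edgeR p under 0.05 there were *Stab1* and *Wnt9b*, for which no fold is given, beside 3.03% of genes lower. Summed stellate cell and fibroblast genes were 104 to 111 CPM in R&Z del against 260 to 336 CPM in R&Z flox, *Dcn*, the proteoglycan decorin, fell (-1.87, adjusted p = 0.0067), and cholangiocyte genes summed to 45.2 to 89.0 CPM against 111.5 to 129.6 CPM. The part of these cell types in the endothelial values was not tested.

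*Wnt9b* had no count in any R&Z del liver at 7 days and 4.397, 0 and 0.473 CPM in R&Z flox, and *Thbd* was 0, 0.171 and 0 CPM against 0 in all 3. Neither is given a fold, because a group was at or under 3 counts in every liver. DESeq2 called both, and it called *Thbd* at 21 days, where R&Z del had 0.440, 0.0666 and 3.07 CPM and R&Z flox had none in 3 livers. These calls rest on groups without counts. *Wnt2* at 7 days was 0, 0 and 3.47 CPM against 1.77, 0 and 0.237 CPM.

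At 21 days most values lay above those at 7 days in both genotypes, a difference that was not tested. *Clec4g* was 95.1, 67.6 and 155.9 CPM in R&Z del and 132.0, 71.6 and 89.3 CPM in R&Z flox. *Stab2* was 86.3, 49.5 and 120.6 CPM against 107.3, 65.8 and 53.1 CPM. The genotypes overlapped throughout, apart from *Thbd*, which was higher in every R&Z del liver, beside 7.55% of genes. The median over the 9 genes with a fold was 0.04. *Wnt2* reached its highest value of all libraries, 33.3 CPM, in 1 R&Z del liver, beside 2.86 and 6.45 CPM in the other 2.

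Against undamaged livers at 1M, the clearest set of low values was in R&Z del livers 7 days after PHx. *Clec4g* was 40.9, 39.1 and 30.7 CPM there and 80.4 to 127.4 CPM in the 4 livers at 1M. *Stab2* was 33.6, 22.8 and 31.5 CPM against 54.5 to 112.5 CPM, and *Stab1* was 33.3, 15.4 and 24.8 CPM against 57.5 to 83.8 CPM. *Lyve1* was 3.16, 0.343 and 2.28 CPM against 9.72 to 34.3 CPM. These 4 sinusoidal genes and *Thbd* did not overlap between the groups, and 3.98% of all genes were lower without overlap. *Kdr*, at 19.98, 22.2 and 9.23 CPM against 17.6 to 61.4 CPM, overlapped.

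None of these values passed the adjusted threshold, which 0.0142% of genes did. The log2 fold changes were -1.50 for *Stab1* (SE 0.42, adjusted p = 0.67), -1.38 for *Stab2* (SE 0.38, adjusted p = 0.67), -1.39 for *Clec4g* (SE 0.42, adjusted p = 0.86), -3.06 for *Lyve1* (SE 1.05, adjusted p = 0.95) and -1.08 for *Kdr* (SE 0.50, adjusted p = 0.98). These 5 of the 10 genes had an unadjusted edgeR p under 0.05 with more than a 2-fold decrease, where 1.76% of genes did. All 8 genes with a fold were negative, with a median of -1.53 against 0.011 over all genes. DESeq2 called *Stab1* (adjusted p = 0.038), *Stab2* (0.039), *Lyve1* (0.054) and *Clec4g* (0.069). The share of all genes that DESeq2 called in this comparison is not given here, so these calls stand without a background.

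The sinusoidal list had 13 of 15 genes negative in that comparison, with a median of -1.60. *Dnase1l3*, a secreted DNase of sinusoidal endothelium and macrophages, was the 1 gene of the list to fall (-2.14, adjusted p = 0.0079). General endothelial genes were negative in 20 of 22 (median -1.29), and their summed level was 148 to 188 CPM against 335 to 436 CPM at 1M. Kupffer cell genes were negative in 10 of 12 (median -1.13), with sums of 137 to 395 CPM against 536 to 869 CPM. Stellate cell and fibroblast genes summed to 104 to 111 CPM against 198 to 347 CPM, and hepatocyte genes had a median of 0.04. The part of the macrophage and stellate cell signals and of sex, which is a term of the fit (all 3 livers at 7 days were male and 2 of 4 at 1M), in the endothelial values was not tested.

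In R&Z flox livers most of the values at 7 days against 1M were nearer to 0. *Clec4g* had a value of -0.07 (SE 0.41), *Stab1* of 0.03 (SE 0.39) and *Lyve1* of -0.48 (SE 0.95). *Stab2* was 40.1, 28.7 and 52.4 CPM against 77.7, 95.0, 39.1 and 70.9 CPM (-0.80, SE 0.36, adjusted p = 0.82) and was the 1 gene at an unadjusted p under 0.05, beside 2.14% of genes lower. *Pecam1*, at 1.65, 1.81 and 3.31 CPM against 3.83 to 10.7 CPM, was the 1 gene lower in every liver, beside 2.24% of genes (-1.49, SE 0.95). The test of the difference between genotype effects at 7 days and at 1M gave -1.52 for *Stab1* (SE 0.53, adjusted p = 0.99) and -1.33 for *Clec4g* (SE 0.54, adjusted p = 0.99) in edgeR. Both had an unadjusted p under 0.05, beside 2.83% of genes on the lower side, and no gene of 14043 passed the adjusted threshold. The genotypes are therefore not shown to differ in their response.

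At 21 days none of the 10 genes passed against 1M in either genotype, no gene of 14043 did (987 in R&Z flox and 684 in R&Z del at an unadjusted p under 0.05, none of the 10 among them), and the medians were 0.45 over 9 genes in R&Z flox and 0.11 over 10 in R&Z del. DESeq2 again called *Thbd* alone in R&Z flox, where all livers after PHx were at 0. Over all comparisons of genotype effects between conditions, 0 of 80 tests of the 10 genes passed, and 3 had an unadjusted edgeR p under 0.05, the third being *Stab1* at 3M against 1M (-1.70, SE 0.80, adjusted p = 0.95), where 2.56% of genes were lower at that threshold.

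The 10 genes varied together to different degrees across livers. For each gene the 3 genes of 11846 whose levels ranked most alike in both batches were taken by the lower of the 2 Spearman correlations, over 18 and 30 libraries that share genotypes, damage and depth. *Stab1* and *Stab2* were each other's nearest gene, at 0.79 in both batches. *Clec4g* was nearest to *Ptprb* (0.82 and 0.75), the lipocalin *Apom* (0.80 and 0.74) and the water channel *Aqp1* (0.73 and 0.75), and *Kdr* had *Clec4g* among its 3 (0.76 and 0.63). *Wnt2* ranked with *Aqp1* (0.64 and 0.63), *Pde2a* (0.69 and 0.60) and *Dnase1l3* (0.74 and 0.55). *Lyve1* had genes of macrophages and other leukocytes as its 3, *Laptm5* (0.70 and 0.69), *Arhgdib* (0.68 and 0.71) and the complement gene *C1qb* (0.67 and 0.73). *Pecam1* was nearest to *Tinagl1* (0.73 and 0.66), *Rspo3* to *Sh3bp5* (0.66 and 0.60), *Thbd* to *Atxn1l* (0.86 and 0.60) and *Wnt9b* to *Ifi206* (0.64 and 0.68). These correlations are descriptions, and in genes with many libraries at 0 the ranks in the second batch hold little information.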

How the data were processed

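RNA was taken from whole liver and sequenced as Smart-Seq2 libraries. Per the study's methods and processing notes, reads were trimmed (Sickle or Trim Galore, which differ between these sources), aligned to mm10 with STAR 2.5.0a and counted per gene without strand by featureCounts (1.5.0-p3 in the first batch, 1.5.0-p1 in the notes of the second and a later version in the methods), over the exons of the UCSC mm10 annotation. The authors deposited raw counts, and no normalization had been applied. CPM here is the count scaled to a common library total, and CPM per kb divides by the exon length of the count table, given for the first batch.

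Tests were run with edgeR 4.0.16 (R 4.3.3) by quasi-likelihood with TMM scaling and Benjamini-Hochberg adjustment over all genes tested. The undamaged fit held 25 libraries of both batches with terms for group, sex and batch, and genes above 1 CPM in 3 libraries. The chronic damage fit held 11 libraries with genes of at least 1 CPM in 6, the first batch fit of damaged and undamaged livers held 18, and the PHx fit held 20 with terms for group and sex. All 10 genes passed each filter. A prior count of 3 was used for the log2 CPM behind the correlations and not for fold changes. Fold changes are those of the fit with no prior count set, and no fold is given where a group was at or under 3 counts in every library. The scripts were tested on simulated data. Alternatives were DESeq2 1.42.0, the likelihood ratio test, other scalings and filters, other sets of libraries, and each library left out in turn. Scaling by library totals, and the replicate block with numbers crossed, were added after the data had been seen.

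The 10 genes and the gene lists were chosen with earlier results of these data known. Genes named beside the 10 are those of the fixed lists that passed, at most 4 per list, and the 3 most alike genes. Of 55 records, 2 have no data here and 5 libraries of conflicting records were not assigned. Values of *Wnt9b*, *Thbd*, *Wnt2* and *Rspo3* are limited in the second batch, where many libraries hold few or no counts. The deepest library of that batch, a R&Z flox liver at 7M with 32168223 counts, had no count of *Wnt2*. The cause of the low counts was not tested.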

Additional observations from a re-analysis of the deposited data

Results flagged for a closer look

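Of 50 sets of values (10 genes in groups of 4 to 10 livers), 5 had a library standing far from the rest of its group, where chance gives about 1 in 20. In R&Z flox livers at 3M, 5 over both batches, 1 liver of the second batch held 87.2 CPM of *Stab1* (the next highest held 22.003 and the lowest 11.5 CPM) and 188.2 CPM of *Stab2* (the next highest 38.5 and the lowest 12.6 CPM). In R&Z del livers at 1M, *Wnt9b* was 2.04 CPM in 1 liver and 0 in the other 3. *Stab1* in the same group was 83.8 CPM in another liver, against 57.5 to 60.7 CPM. In R&Z flox livers at 1M, *Thbd* was 5.37 CPM in 1 liver, against at most 0.121 CPM in the other 3. In the undamaged and PHx comparisons, leaving out any of these libraries left the count of the 10 genes passing at 0.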

How the results depend on the processing

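Over 26 comparisons, 193 of 221 counts of the 10 genes passing were unchanged under another setting, and 488 of 498 when a library was left out. The share of all genes passing for the genotype effect 4 days after CCl4 was 27.4% in the main fit. It was 16.9% with no filter, 29.7% by DESeq2, 26.2% with a replicate block and 42.5% without TMM. For the genotype effect 4 days after CCl4 the 3 calls became 6 with no filter on low counts, 5 with that time point alone, 0 with the 3 libraries of conflicting records, and 1 to 4 when a library was left out (1 without the first R&Z del or either R&Z flox liver). The sinusoidal count there (4) became 9 with no filter, 8 with DESeq2, 8 with the time point alone, 2 without TMM, 0 with the disputed libraries, and 1 to 7 on leaving out a library. The capillarization count (5) became 9 with no filter, 1 with the disputed libraries, and 1 to 6 on leaving out a library. With a replicate block the 3 calls stayed 3 in number, sinusoidal genes became 7, and with numbers crossed at 170 days 8, when 1 of the 10 genes (*Clec4g*) passed at 50 days. Same-numbered libraries share only a number (correlations of deviations 0.312 at 4 days and -0.359 at 170 days), and the block changed no other count of the 10 genes.

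With no filter, the count was 2 for the genotype effect at 50 days (7.73% of all genes). For the CCl4 effect in R&Z flox it was 3 at 4 days (4.97%) and 5 at 170 days (2.5%). In R&Z del it was 2, 1 and 1 at 4, 50 and 170 days (13.9%, 7.47% and 1.93%). It was 1 for the difference of genotype effects at 4 days against 3M (5.14%). For PHx 7 days against 1M in R&Z del it was 1, and the share of all genes is not given here. For CCl4 at 4 days in R&Z flox the count was 1 by the likelihood ratio test, by DESeq2, in males and with 3M and 7M as reference, and 0 to 1 on leaving out a library (1 without either 7M R&Z flox liver). In R&Z del it was 1 by both tests, without TMM and with both references, and 0 to 2 on leaving out a library (2 without either 7M liver and 1 without the first CCl4 liver). At 50 days in R&Z del it was 0 to 1 (1 without either 7M liver). By DESeq2, 1 gene passed at CCl4 170 days in R&Z flox, beside 1.03% of all genes. At PHx 7 days in R&Z del 4 passed, and 2 and 1 for the genotype effect at PHx 7 and 21 days. The counts were 1 and 1 for PHx in R&Z flox, and 1 and 1 for the differences of genotype effects after PHx. The shares of all genes in these PHx comparisons are not given here. With the disputed libraries, *Vegfb* (-0.021) and *Alb* (0.054) reversed at 50 days. The cause of these changes was not tested. With 1 to 5 livers a group, effects below the spread were not detectable.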

Other observations

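The 5 libraries of the first batch without a settled group are given by their ranges. *Clec4g* ran from 21.6 to 161.1 CPM with a median of 122.2, *Stab2* from 18.3 to 66.1 with a median of 41.2, and *Kdr* from 7.89 to 39.4 with a median of 26.1. *Wnt2* ran from 0.998 to 6.73 CPM, *Rspo3* from 2.39 to 3.80 CPM, *Wnt9b* from 0.0842 to 0.961 CPM and *Lyve1* from 0.534 to 6.62 CPM.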
